A study of Mus musculus with 4 samples.

Results

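The nuclear-encoded genes of oxidative phosphorylation were examined in the mouse retina at embryonic day 19 (E19). They were taken by symbol: those starting with Ndufa, Ndufb, Ndufc, Ndufs, Ndufv, Uqcr, Cox4, Cox5, Cox6, Cox7, Cox8 or Atp5, with Sdha to Sdhd and Cyc1. The 8 Ndufaf assembly factors and 4 symbols with "-ps" were left out. This gave 84 of the 18471 genes counted: 37 of complex I, 4 of complex II, 9 of complex III, 16 of complex IV and 18 of complex V. Ndufa4 and its paralog Ndufa4l2 were placed in complex IV, where the Ndufa4 protein is known to sit. The study compared retinas of embryos labelled wild-type with retinas labelled Foxn3KO, each group with 2 libraries of total RNA. The mutant strain is C57BL/6NJ-Foxn3em1(IMPC)Bay/Mmnc, in which exon 3 of Foxn3, a forkhead transcription factor gene, is deleted. Each library came from a genotyped embryo, per the labels, so the replicates differ by animal, and a directional kit with molecular identifiers in its adaptors was used. The labels give no litter, batch or strain of the wild-type embryos.

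Oxidative phosphorylation makes most of the ATP of neurons, and photoreceptors are known for a very high demand. Complexes I and II pass electrons from NADH and succinate to coenzyme Q, complex III passes them to cytochrome c, and complex IV passes them to oxygen. Complexes I, III and IV pump protons, and complex V, the ATP synthase, uses the return flow to make ATP. Apart from complex II, each complex joins proteins of the nuclear genome with proteins encoded in mitochondrial DNA.

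Between 22543531 and 29360129 counts were assigned to genes per library. Values below are counts scaled to a library of 1000000 (CPM) with TMM, a correction for library composition, and are given in the order wild-type 1, wild-type 2, Foxn3KO 1 and Foxn3KO 2. Foxn3 itself had 2421, 2712, 4181 and 3219 counts, so its total was higher in the libraries labelled Foxn3KO (log2 fold change 0.54, edgeR quasi-likelihood test, adjusted p = 7.8e-08). Gene totals do not resolve exon 3, and all directions below rest on the labels. Wild-type replicate 1 differed from the other 3 libraries in sex-linked RNA, with 83073 Xist counts against 9 to 19 and no Ddx3y count. The retinal markers summed to between 2945 and 3038 CPM in each library, and 2 of 10 were called higher. Lens markers summed to 2.50, 33.0, 151 and 149 CPM (3 of 3 tested called higher), and pigment epithelium markers to 42.7, 65.3, 32.2 and 33.3 CPM (3 of 4 tested called lower). No marker of blood (4 tested), microglia (4) or striated muscle (3) was called by edgeR, with 0, 1 and 0 at an unadjusted p under 0.05, and 1 of 6 of vessels and mesenchyme was called. In bulk retina, fewer cells of a type and less RNA per cell cannot be told apart.

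The 84 genes differed little between the labelled genotypes, and most of the small differences lay on the higher side. All 84 passed the filter on low counts, and 80 of them had a mean of at least 20 CPM. Called here means an adjusted p under 0.05 in edgeR's quasi-likelihood test with Benjamini-Hochberg adjustment over all 17300 genes tested. By that rule 13 of the 84 (15.5%) were called, against a background of 21.9% of all genes and 29.0% of the 9131 genes with at least 20 CPM (15.5% higher and 13.5% lower). The 12 called higher were 14.3% of the members (background 12.3%), and the gene called lower, Cox4i2, was 1.19% of them (background 9.66%). These shares lie near or below the background, so the number of calls is no result about these genes. DESeq2 called 4 of the 84 (4.76%, against 14.1% of all genes), all higher (background 8.91% higher and 5.16% lower): Cox5a, Sdha, Ndufa1 and Atp5f1a.

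The median log2 fold change over the 84 genes was 0.047, and it was -0.0047 over all genes tested. The single values ran from -0.27 (Cox6b2) to 0.25 (Cox5a), with a median standard error of 0.053. Positive values were found for 63 of the 84 (75.0%), against 49.1% of all genes. Of the related lists described below, the mitochondrial ribosome had 73.1% and the TCA cycle 78.9% positive values. The assembly factors had 54.8% and the cytosolic ribosome 12.7%. A log2 fold change within 0.1 of zero was found for 60.7% of the members, compared with 49.6% of the genes with at least 20 CPM. Only 7.14% of the members lay beyond 0.2 in either direction, compared with 21.8% of those genes, and no member lay beyond 0.5. For 39 members both Foxn3KO values lay above both wild-type values, and for 12 both lay below, together 60.7% against 60.4% of all genes. The background was 29.9% higher and 30.5% lower, so members without overlap lay mostly on the higher side. The members shared the 4 libraries, so they are not independent observations.

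The median log2 ratio of wild-type 1 over wild-type 2 across the 84 genes was 0.042, about as large as the shift between genotypes, and that of Foxn3KO 1 over Foxn3KO 2 was 0.0090. For 37 members (44.0%, against 41.3% of all genes) the genotypes differed less than the wild-type libraries did. Their summed CPM was 8840, 8646, 9180 and 9044, so both Foxn3KO sums lay above both wild-type sums. Without wild-type replicate 1, the library with Xist counts, 25 members were called, 23 higher and 2 lower (background 24.3%), with a median of 0.077. Without wild-type replicate 2, the calls were 15 higher and 4 lower (background 28.6%), with a median of 0.015. Without Foxn3KO replicate 1 the count was 1, Cox5a (background 13.1%), and without Foxn3KO replicate 2 it was 5, all higher (background 13.0%). Of the 13 called genes, all but Cox4i2 were called without wild-type replicate 1, all but Atp5f1e and Atp5mf without wild-type replicate 2, and 4 without Foxn3KO replicate 2. Scaling by total counts in place of TMM gave 7 higher and 4 lower calls (background 23.0%), with a median of 0.0265. The part of the lens and pigment epithelium markers in these differences was not tested.

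**Figure D1:**
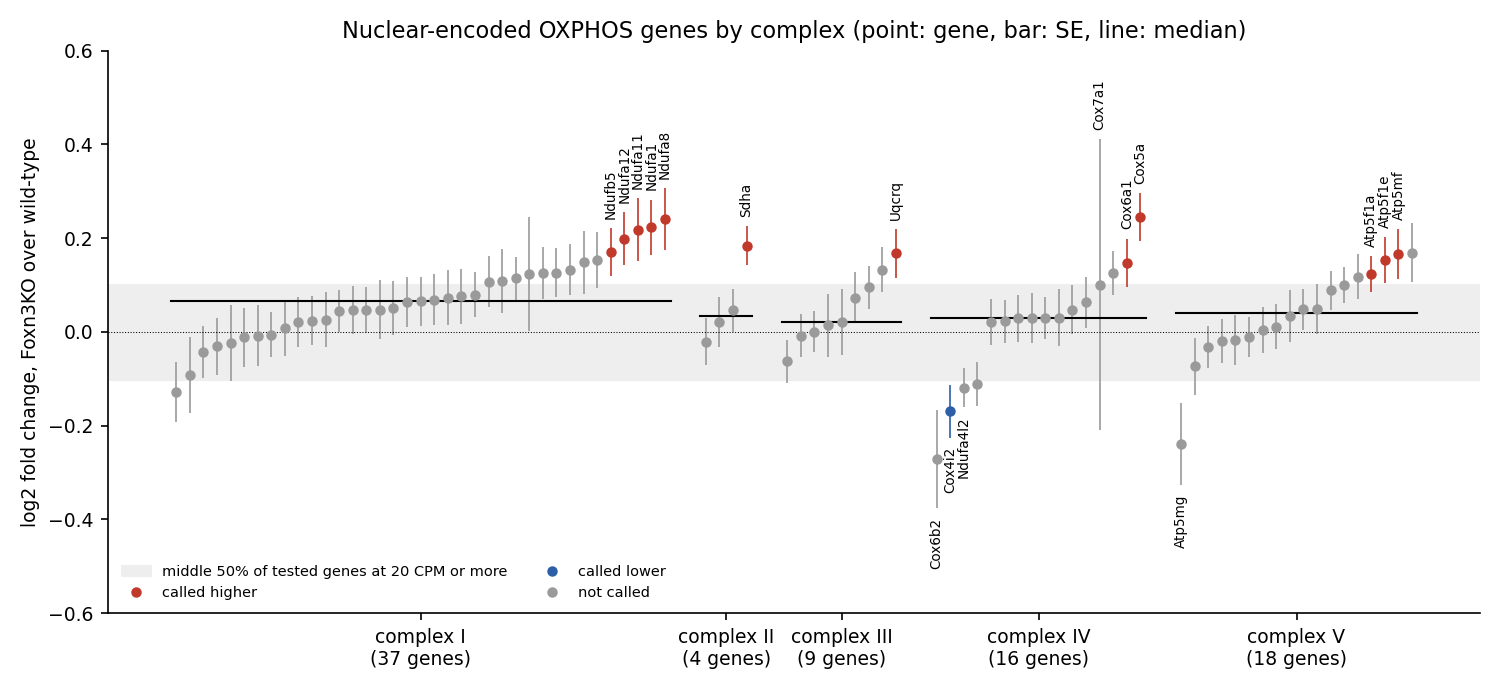
Log2 fold change of Foxn3KO over wild-type for each of the 84 genes (y axis), grouped by complex and sorted within it (x axis). Points are genes, bars are standard errors, horizontal lines are complex medians and the grey band holds the middle 50% of tested genes with at least 20 CPM. All 84 points lie between -0.27 and 0.25, and the complex medians lie between 0.021 and 0.065.

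Promoter sequences were looked at because the genes are spread over 19 chromosomes and are known to share control by the factors NRF1, GABP (an ETS factor) and YY1. RefSeq promoter windows (build GRCm38.p6, 250 bases before to 50 after the start) were found for 67 of the 84, of which 13 were matched by an older symbol. The 3 members called under each of the 9 ways of fitting all 4 libraries were Ndufa1, Sdha and Cox5a, and the 250 bases before their starts are shown. They lie at chrX:37191239-37191488 on the minus strand, chr13:74350241-74350490 on the minus strand and chr9:57520982-57521231 on the plus strand. Capitals mark matches on either strand to the NRF1 core TGCGCA, the ETS motif CCGGAAG, the YY1 motif ATGGCGG or the SP motif GGGCGG, and each sequence reads 5′ to 3′ along the gene.
Ndufa1: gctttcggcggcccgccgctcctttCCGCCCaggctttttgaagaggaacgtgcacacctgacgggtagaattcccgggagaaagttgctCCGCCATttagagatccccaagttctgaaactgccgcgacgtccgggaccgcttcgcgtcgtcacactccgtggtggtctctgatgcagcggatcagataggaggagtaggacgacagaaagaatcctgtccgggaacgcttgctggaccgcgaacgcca
Sdha: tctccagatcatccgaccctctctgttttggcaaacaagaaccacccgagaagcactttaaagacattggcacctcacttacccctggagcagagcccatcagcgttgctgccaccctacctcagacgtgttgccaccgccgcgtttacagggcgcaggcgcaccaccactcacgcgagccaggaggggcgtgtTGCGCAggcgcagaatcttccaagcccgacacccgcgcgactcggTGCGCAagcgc
Cox5a: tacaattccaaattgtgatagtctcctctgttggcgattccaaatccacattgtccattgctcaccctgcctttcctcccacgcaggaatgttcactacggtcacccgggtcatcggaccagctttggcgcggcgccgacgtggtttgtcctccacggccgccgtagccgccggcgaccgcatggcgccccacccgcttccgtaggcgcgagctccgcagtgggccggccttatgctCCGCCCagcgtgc
The Ndufa1 sequence held 1 YY1 and 1 SP match, and the Sdha sequence held 2 NRF1 cores. The Cox5a sequence held 1 SP match and none of the other 3 motifs. Ndufa1 and Cox5a thus had the SP motif in common in the shown bases, and Sdha had a motif that neither of them held.

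Of the 67 members with a window, 18 (26.9%) held the NRF1 core, which is its own reverse complement. The share was 8.79% of all 27025 genes with a window and 18.0% of 7208 other genes with at least 20 CPM. A gene was counted if any of its windows held the motif. The ETS motif was found in 16 (23.9%, against 9.93% and 22.7%) and the YY1 motif in 10 (14.9%, against 4.69% and 11.4%). At least 1 of these 3 was in 36 members (53.7%, against 20.2% and 43.2%). The SP motif was in 27 members (40.3%), close to the share of all genes with a window (38.2%) and below that of the genes with at least 20 CPM (73.3%). The CCAAT box was in 28 members (41.8%, against 41.1% and 43.9%), and the TATA box TATAAA in 5 (7.46%, against 15.7% and 7.87%). Of the 10 called members with a window, 3 held the NRF1 core, 2 the ETS motif and 2 the YY1 motif, and of the 57 others 15, 14 and 8 did. The SP motif was in 6 of the 10 and in 21 of the 57. No motif searched was found in every called member. The median GC content was 58.0% in the members' windows and 62.0% in those of the 7208 genes. A match is a run of letters and not a measured binding site.

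Complex I takes electrons from NADH through a peripheral arm with flavin and iron-sulfur clusters, and accessory subunits surround its catalytic core. All 5 genes called in it were accessory subunits and all were higher (16.7% of the 30 accessory subunits). The background was 12.3% of all genes and 15.5% of genes with at least 20 CPM. DESeq2 called 1 of the 30. None of the 7 nuclear-encoded core subunits was called by edgeR or DESeq2, with 1 at an unadjusted p under 0.05 in edgeR and 0 in DESeq2. Their log2 fold changes ran from -0.042 (Ndufs3) to 0.11 (Ndufv1). The median was 0.045 for the core and 0.067 for the 30 accessory subunits, a difference that was not tested. The 7 core genes are too few for the absence of calls to be read against the background of 21.9%.

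Ndufa8, an accessory subunit held by cysteine pairs on the intermembrane side, had 44.2, 40.5, 52.2 and 47.9 CPM. Both Foxn3KO libraries were above both wild-type libraries, with a log2 fold change of 0.24 (SE 0.066, edgeR adjusted p = 0.0135). Ndufa1, a small X-linked membrane-arm subunit, had 52.7, 52.4, 64.2 and 58.4 CPM. Its wild-type values were nearly equal and lay below both Foxn3KO values, with a log2 fold change of 0.22 (SE 0.060, edgeR adjusted p = 0.0117). Ndufa12, which sits at the junction of the arms, had 51.9, 49.6, 57.4 and 59.1 CPM. The groups did not overlap, and the log2 fold change was 0.20 (SE 0.057, edgeR adjusted p = 0.0179). The remaining called genes, Ndufb5 and Ndufa11, both membrane-arm subunits, were named after their values were seen. Ndufb5 had 79.8, 75.3, 87.4 and 87.0 CPM, without overlap (log2 fold change 0.17, edgeR adjusted p = 0.0243). Ndufa11 had 30.9, 30.0, 36.1 and 34.6 CPM, also without overlap (log2 fold change 0.22, edgeR adjusted p = 0.0267). Ndufb5 overlaps Mrpl47 (log2 fold change 0.20), and Ndufa11 overlaps Vmac (-0.13), each on the opposite strand. The use of strand in the counting is not given in the sources used here. Of the 32 uncalled genes of complex I, the lowest value was that of Ndufa6 at -0.13 (edgeR adjusted p = 0.171), and the means of all 37 ran from 8.51 to 162 CPM.

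Complex II, succinate dehydrogenase, is the only complex made wholly of nuclear-encoded proteins and also works in the TCA cycle. Sdha, the flavoprotein that oxidises succinate, had 209, 211, 240.4 and 237 CPM. The wild-type values were nearly equal and lay under both Foxn3KO values, with a log2 fold change of 0.18 (SE 0.042, edgeR adjusted p = 0.00394). A processed pseudogene, Gm16125, lies on the opposite strand of Sdha. Its partners showed smaller values and were not called: 0.021 for the iron-sulfur subunit Sdhb, 0.047 for the membrane anchor Sdhc and -0.021 for the anchor Sdhd. Sdhb and Sdhd overlapped between the groups, and Sdhc did not.

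Complex III carries electrons from reduced coenzyme Q to cytochrome c. Its only called gene was Uqcrq, a small subunit near the quinone site, with 68.8, 68.5, 75.6 and 78.7 CPM. Both Foxn3KO values were above both wild-type values (log2 fold change 0.17, SE 0.052, edgeR adjusted p = 0.0277). Uqcrc1, a core protein of the matrix side, had 142, 141, 161 and 149 CPM and a log2 fold change of 0.13 that missed the threshold (edgeR adjusted p = 0.0567). The other electron-carrying and core genes were closer to zero: 0.095 for cytochrome c1 (Cyc1), 0.00069 for Uqcrc2 and -0.0076 for the Rieske iron-sulfur protein Uqcrfs1.

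Complex IV, cytochrome c oxidase, has a catalytic centre encoded in mitochondrial DNA and a shell of nuclear-encoded subunits, several with tissue-specific isoforms. It was the only complex with calls in both directions, 2 higher and 1 lower. Cox5a, a subunit of the matrix side, had 86.2, 91.5, 107 and 104 CPM. It had the largest positive log2 fold change of the 84 genes, 0.25 (SE 0.050, edgeR adjusted p = 0.00176), and was the only member still called when any 1 of the 4 libraries was left out. A long non-coding RNA, Gm26631, overlaps Cox5a on the opposite strand and had a log2 fold change of 0.38. Cox6a1, the widely expressed Cox6a isoform, had 88.9, 92.2, 104 and 96.9 CPM. The groups did not overlap, but the call was near the threshold (log2 fold change 0.15, SE 0.052, edgeR adjusted p = 0.0492), and the value was 0.098 without Foxn3KO replicate 1. Cox5b, which binds zinc, was at 0.030 and Cox4i1 at 0.030, both uncalled.

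Complex V, the ATP synthase, joins the F1 head, where ATP is made, to the membrane part with its ring of c subunits. Of the 5 F1 genes, 2 were called higher (background 12.3%), and 4 were higher without overlap between the groups (background 29.9%), counts too small to be read against those shares. Atp5f1a, the alpha subunit, had 641, 639, 694 and 699 CPM. The 2 values of each group differed far less than the groups did (log2 fold change 0.12, SE 0.039, edgeR adjusted p = 0.0299), and Haus1, which overlaps Atp5f1a on the opposite strand, had a log2 fold change of -0.0078. Atp5f1e, the epsilon subunit, had 110.0, 103, 119.5 and 117 CPM (log2 fold change 0.15, SE 0.049, edgeR adjusted p = 0.0328). Atp5f1b, the catalytic beta subunit and the member with the most reads, had 869, 868, 933 and 930 CPM. Its groups did not overlap either, but it missed the threshold (log2 fold change 0.10, edgeR adjusted p = 0.0737), as did the delta subunit Atp5f1d (0.12, edgeR adjusted p = 0.0864). The gamma subunit Atp5f1c differed from these, with 183, 183, 178 and 184 CPM, overlapping groups and a log2 fold change of -0.011.

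The 5 F1 genes together summed to 1901, 1893, 2033 and 2038 CPM, and their median was 0.12, against 0.011 for the 13 other members of complex V. Of those 13, Atp5mf, the f subunit of the membrane part, was called, with 115, 105, 127 and 119 CPM (log2 fold change 0.17, SE 0.054, edgeR adjusted p = 0.0348). The groups did not overlap, although the lower Foxn3KO value lay close to the higher wild-type value, and the log2 fold change was 0.10 without wild-type replicate 2. Atp5if1, the inhibitor that blocks reversal of the enzyme, had 141, 131, 139 and 134 CPM and a log2 fold change of 0.0042. At the low end, Atp5mg, the g subunit, had 18.6, 18.3, 15.6 and 15.7 CPM, with no overlap but no call (log2 fold change -0.24, edgeR adjusted p = 0.0599). Atp5mg was named after its value was seen. Under scaling by total counts no gene of complex V was called higher, and 1 was called lower.

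**Figure D2:**
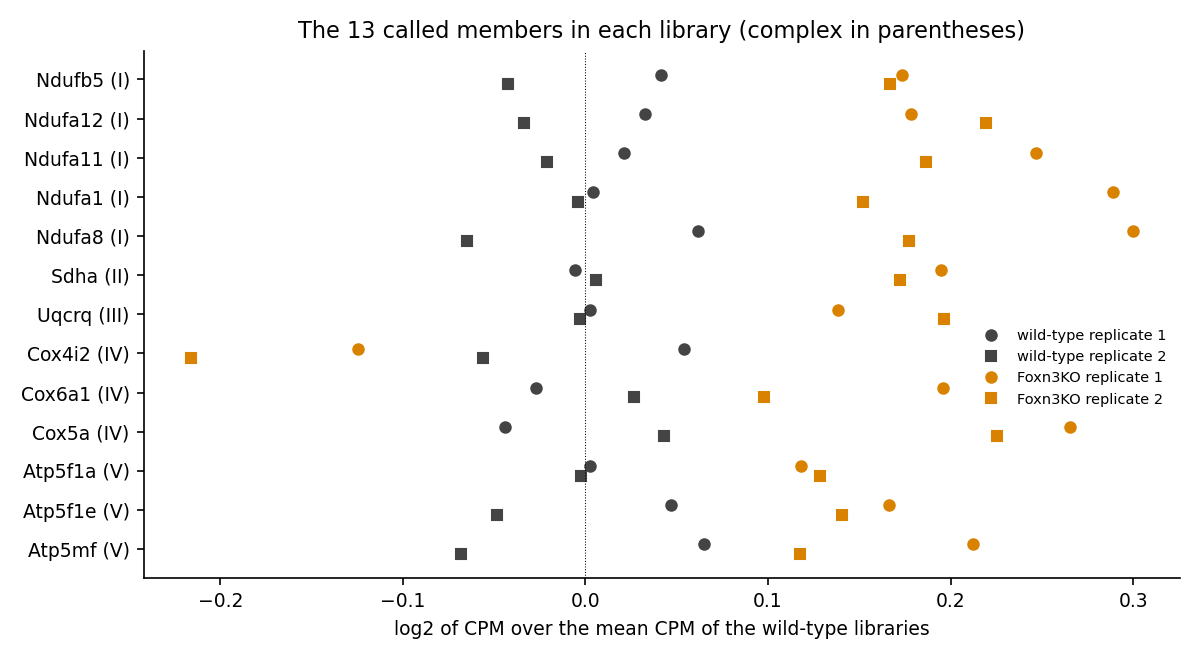
Each of the 13 called genes in each library, as log2 of its CPM over the mean CPM of the wild-type libraries (x axis), with genes and their complex on the y axis. Grey symbols are wild-type and orange symbols Foxn3KO, with circles for replicate 1 and squares for replicate 2. In 12 genes both orange symbols lie to the right of both grey ones, and in Cox4i2 they lie to the left.

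Compared by complex, the medians were 0.065 for complex I, 0.034 for complex II, 0.021 for complex III, 0.030 for complex IV and 0.041 for complex V. Called higher were 5 of 37, 1 of 4, 1 of 9, 2 of 16 and 3 of 18, and positive values were found for 29, 3, 7, 12 and 12. The shares called higher, 11.1% to 25.0%, lay near the background of 12.3% (15.5% of genes with at least 20 CPM), and 49.1% of all genes had positive values. The order of the complexes was not larger than the spread between libraries. Leaving out 1 library at a time moved the median of complex I between 0.034 and 0.093, that of complex III between -0.013 and 0.093 and that of complex IV between -0.010 and 0.069. The medians of complexes II and V moved between 0.016 and 0.055 and between 0.019 and 0.057. No difference between complexes was tested.

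The shares of Cox4i2, Ndufa4l2 and Cox6b2 in their isoform families were each lower in both libraries labelled Foxn3KO. That of Cox7a1 overlapped between the groups. Ndufa4l2 was the larger part of its family in every library. Among all genes tested, 30.5% lay lower without overlap in CPM, and no such background was computed for shares. Shares are of the summed FPKM of the family (counts scaled by gene length and library total, as deposited), since levels of different genes are compared only per length. Cox4i2, the Cox4 isoform known for induction at low oxygen, had 79.6, 73.7, 70.3 and 66.0 CPM and was the only member called lower (log2 fold change -0.17, SE 0.057, edgeR adjusted p = 0.0413). The call was lost under DESeq2 (adjusted p = 0.145) and without wild-type replicate 1, where the value was -0.11 (edgeR adjusted p = 0.145). It was also lost without Foxn3KO replicate 1 or 2 (edgeR adjusted p = 0.0701 and 0.392). The share of Cox4i2 in Cox4 FPKM was 36.7%, 35.6%, 33.1% and 33.0%, while Cox4i1, the main isoform, had 270, 262, 279 and 263 CPM with overlapping groups. Ndufa4l2, the Ndufa4 paralog known to be induced by hypoxia, had 262, 255, 239 and 237 CPM. It missed the threshold (log2 fold change -0.12, edgeR adjusted p = 0.0506), as did Ndufa4 itself with 126, 121, 137 and 132 CPM (0.13, edgeR adjusted p = 0.0662). For each of these genes the groups did not overlap, with opposite directions, and the share of Ndufa4l2 was 72.4%, 72.6%, 68.7% and 69.3%. Cox6b2, known as the testis isoform, was 9.01%, 7.85%, 6.35% and 7.34% of Cox6b FPKM. Its CPM of 21.1, 16.8, 15.2 and 16.1 varied among the wild-type libraries, and it was not called (log2 fold change -0.27, edgeR adjusted p = 0.0752). With 2 values in each group, an exact two-sided permutation test of a share cannot give a p under 0.333.

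Cox7a1, the muscle and heart isoform, was low at 1.41, 1.10, 1.20 and 1.52 CPM and made up 1.86% to 2.51% of the FPKM it shared with Cox7a2. Cox7a2 had 106, 103, 108 and 104 CPM. Cox7a2l, the related protein that joins complexes III and IV, was at 118, 119, 109.8 and 109.4 CPM, without overlap and uncalled (log2 fold change -0.11, edgeR adjusted p = 0.0980). Cox6b1, Cox7b and Cox8a were uncalled, with log2 fold changes of 0.063, 0.047 and 0.023. The 3 genes for the c subunit encode the same mature protein. Atp5mc3 gave 70.7%, 70.3%, 72.0% and 72.7% of their FPKM, Atp5mc2 20.6%, 21.0%, 19.5% and 18.6%, and Atp5mc1 8.73%, 8.72%, 8.55% and 8.69%. The share of Atp5mc3 was thus higher, and that of Atp5mc2 lower, in both Foxn3KO libraries than in both wild-type libraries. The log2 fold changes of Atp5mc3, Atp5mc2 and Atp5mc1 were 0.089, -0.073 and 0.034, and each missed the threshold. The isoforms Cox6a2, Cox7b2, Cox8b and Cox8c were not analysed here.

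**Figure D3:**
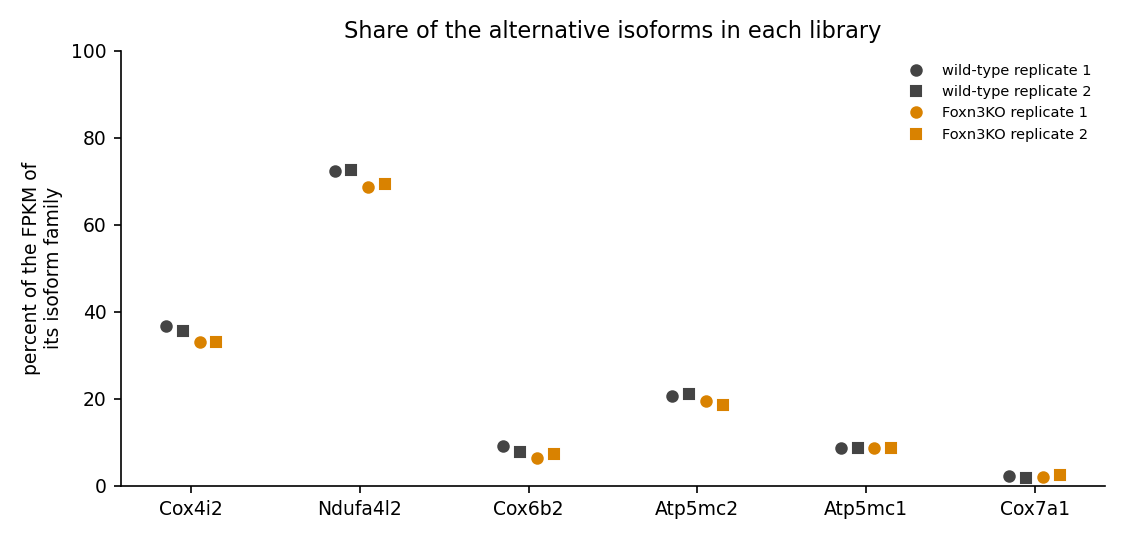
Share of each of 6 isoforms (x axis) in the summed FPKM of its family, in percent (y axis). Grey symbols are wild-type and orange symbols Foxn3KO, 1 symbol per library. Cox4i2 lay between 33.0% and 36.7% and Ndufa4l2 between 68.7% and 72.6%, each with both Foxn3KO values under both wild-type values.

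Levels per gene length spread far more between subunits than between genotypes. The genes in the rest of this paragraph were picked by rank of FPKM. The median FPKM over the 84 genes was 53.8, with 36.1 for complex I, 47.3 for complex II, 74.3 for complex III, 84.2 for complex IV and 60.4 for complex V. The highest levels were those of Ndufa4l2 (226 FPKM, mean of the 4 libraries), Cox8a (217), Atp5f1a (212) and Atp5f1b (212). Over the libraries Ndufa4l2 ranged from 216 to 238, Cox8a from 211 to 220, Atp5f1a from 203 to 222 and Atp5f1b from 204 to 220 FPKM. These ranges overlap, so neighbours in this order do not differ beyond their spread. In complex I Ndufa1 led with 135 FPKM, and in complexes II and III Sdhd (69.5) and Uqcrh (94.8) did. Low levels were found for Cox7a1 (2.44), Atp5mg (2.64) and Ndufb4 (4.42). Genes with close copies elsewhere in the genome can lose reads that map to several places, and how such reads were counted is not given in the sources used here. The range over libraries of the called gene Cox5a, 40.8 to 50.7 FPKM, was small beside the range over the genes of complex IV.

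**Figure D4:**
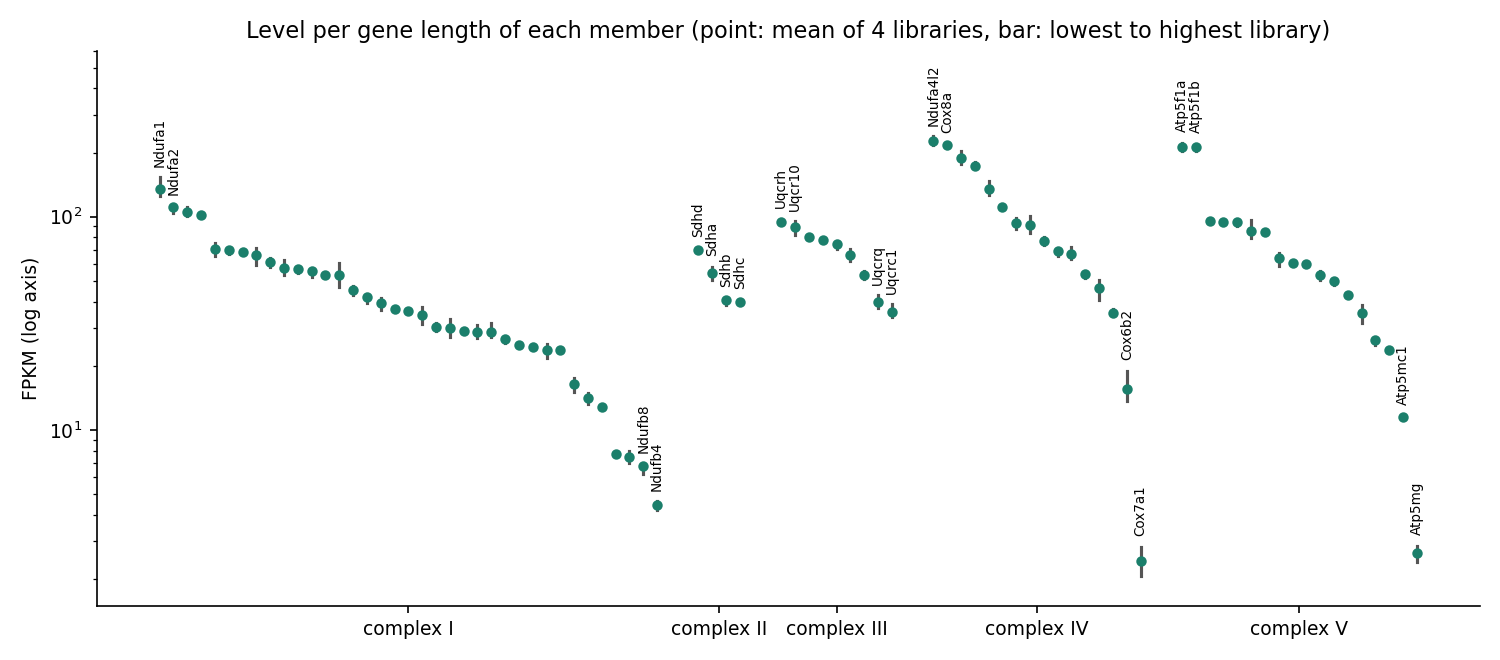
FPKM of each of the 84 genes on a log axis (y axis), ranked within each complex (x axis). Points are means of the 4 libraries and bars run from the lowest to the highest library. The means run from 2.44 (Cox7a1) to 226 (Ndufa4l2).

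Of the members on chromosome X, Ndufa1 was called and Ndufb11 and Cox7b were not, with log2 fold changes of 0.047 each. Wild-type replicate 1, the library with Xist counts, and wild-type replicate 2 had 52.7 and 52.4 CPM for Ndufa1, 92.1 and 90.7 for Ndufb11, and 85.4 and 80.0 for Cox7b. For Cox7b the wild-type libraries differed by more than the genotype means did.

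The complexes need assembly factors, of which 62 were tested, with a median log2 fold change of 0.018. Of these, 4 were called higher (6.45%, background 12.3%) and 1 lower (1.61%, background 9.66%). For complex I, Nubpl, which delivers iron-sulfur clusters, had 10.4, 11.2, 16.3 and 15.0 CPM and no overlap (log2 fold change 0.53, edgeR adjusted p = 0.00103). Ndufaf7, a mitochondrial methyltransferase, was higher by 0.26 (edgeR adjusted p = 0.0111) or by 0.17 without wild-type replicate 2, and Tmem126b, of the membrane-arm assembly complex, was lower (log2 fold change -0.24, edgeR adjusted p = 0.0145). For complex IV, the called factors were Higd2a (0.23, edgeR adjusted p = 0.0076) and the heme synthesis enzyme Cox10 (0.27, edgeR adjusted p = 0.0192). None of the 4, 9 and 5 factors tested for complexes II, III and V was called by edgeR or by DESeq2, and at an unadjusted p under 0.05 edgeR gave 0, 2 and 0 of them.

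Of the 13 mitochondrial DNA encoded subunits, 2 were called, both lower (15.4%, background 9.66%), and 3 had an unadjusted p under 0.05 in edgeR. mt-Co1, the catalytic subunit of complex IV, had 7450, 7451, 6672 and 6933 CPM (log2 fold change -0.13, edgeR adjusted p = 0.0348). Both Foxn3KO libraries lay under both wild-type libraries. Of the called nuclear-encoded genes of complex IV, Cox5a and Cox6a1 went in the opposite direction and Cox4i2 in the same one. mt-Nd5, of complex I, had 1569, 1851, 1402 and 1509 CPM, also without overlap (log2 fold change -0.23, edgeR adjusted p = 0.00879), but DESeq2 did not call it (adjusted p = 0.274). With wild-type replicate 1 left out the value was -0.35, with the other wild-type library left out it was -0.11, and the call was lost without Foxn3KO replicate 1 (edgeR adjusted p = 0.22). mt-Co1 lost its call without Foxn3KO replicate 1 or 2 (edgeR adjusted p = 0.691 and 0.508). mt-Nd5 overlaps mt-Nd6 on the opposite strand, and mt-Nd6 had 46.5, 19.9, 46.2 and 43.7 CPM. mt-Nd1, mt-Nd2, mt-Nd4 and mt-Cytb, all between 1288 and 4410 CPM, had log2 fold changes from -0.014 to 0.11. mt-Co2, mt-Co3, mt-Atp6, mt-Atp8, mt-Nd3 and mt-Nd4l had under 5 CPM in each library, far below these genes, although all but mt-Nd6 are read from the same strand as a long precursor.

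Electrons pass between the complexes on coenzyme Q and cytochrome c. Of 14 carrier and coenzyme Q synthesis genes, 2 were called, both higher (14.3%, background 12.3%). Coq8b, a kinase-like protein of coenzyme Q synthesis, had 34.0, 32.3, 70.7 and 68.5 CPM. That is more than any difference among the 84 subunit genes: a log2 fold change of 1.07 (SE 0.059, edgeR adjusted p = 2.0e-10). Gm15567, which overlaps Coq8b on the opposite strand, had a log2 fold change of -0.47. Coq4, another protein of coenzyme Q synthesis, had 15.8, 14.5, 22.6 and 23.3 CPM (log2 fold change 0.59, SE 0.086, edgeR adjusted p = 6.4e-05). It overlaps Trub2 (log2 fold change 0.017) on the opposite strand. Cytochrome c (Cycs) had 38.5, 36.5, 37.2 and 38.6 CPM, with overlapping groups and a log2 fold change of 0.015.

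In the TCA cycle, which supplies NADH and succinate, 5 of 19 genes were called, all higher (26.3%), with a median of 0.074. The background was 12.3% of all genes and 15.5% of genes with at least 20 CPM, a level that all 19 reached. DESeq2 called 3 of the 19, all higher (background 8.91%). In edgeR, the smallest p-values were those of Ogdh, a subunit of the 2-oxoglutarate dehydrogenase complex (log2 fold change 0.27, edgeR adjusted p = 0.00163), and malate dehydrogenase Mdh2 (0.22, edgeR adjusted p = 0.00189). In glycolysis, 3 of 18 entries were called higher (16.7%, background 12.3%) and 1 lower (5.56%, background 9.66%), with a median of 0.035. The called glycolytic genes with the smallest p were the phosphofructokinases Pfkp (-0.49, edgeR adjusted p = 1.3e-05) and Pfkl (0.15, edgeR adjusted p = 0.0152), in opposite directions, and lactate dehydrogenase Ldha (0.15, edgeR adjusted p = 0.0211). Ldha was at 0.091 without wild-type replicate 2.

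The 17 regulators of mitochondrial biogenesis had a median of -0.016, with 1 called in each direction (5.88% each, background 12.3% higher and 9.66% lower). Gabpb2, a GABP beta subunit, had 100.3, 101, 85.2 and 89.4 CPM (log2 fold change -0.21, edgeR adjusted p = 0.0057). Its DNA-binding partner Gabpa had 103, 97.1, 89.9 and 91.0 CPM, without overlap, and just missed the threshold (log2 fold change -0.14, edgeR adjusted p = 0.0507), and Gabpb1 was at -0.016. Tfb1m, which methylates mitochondrial ribosomal RNA, had 10.4, 10.9, 12.9 and 13.6 CPM (log2 fold change 0.32, edgeR adjusted p = 0.0394). Tiam2, which overlaps Tfb1m on the opposite strand, had a log2 fold change of 0.43. Nrf1 (0.068), Yy1 (0.029), Tfam (-0.072), Tfb2m (-0.019), Polrmt (-0.068), Twnk (0.070), Polg (-0.052), Polg2 (-0.24), Esrra (0.15), Pprc1 (0.14), Ppargc1a (-0.19), Ppargc1b (0.18) and Myc (0.19) were not called. Ppargc1a and Ppargc1b, coactivators of this programme, were low, at 5.22 to 7.01 CPM and 0.714 to 1.48 CPM.

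The mitochondrial ribosome makes the mitochondrial DNA encoded subunits. Of its 78 genes, 6 were called, all higher (7.69%, background 12.3%), with a median of 0.047. These calls were led by Mrpl58 (log2 fold change 0.22, edgeR adjusted p = 0.0138) and Mrpl36 (0.24, edgeR adjusted p = 0.0162). Mrpl36 overlaps Ndufs6 (log2 fold change 0.15) on the opposite strand. By DESeq2 none of these 78 was called, and 6 had an unadjusted p under 0.05. The 79 genes of the cytosolic ribosome had a median of -0.079, with 10 positive values. Of these 79, 2 were called higher (2.53%, background 12.3%) and 7 lower (8.86%, background 9.66%). The called genes with the smallest p were Rpl41 (0.36, edgeR adjusted p = 3.7e-06) and Rps4l (0.42, edgeR adjusted p = 0.0046) among the higher, and Rps19 (-0.16, edgeR adjusted p = 0.0096) and Rplp0 (-0.13, edgeR adjusted p = 0.0204) among the lower. The cytosolic ribosomal genes summed to 28388, 26947, 26707 and 25907 CPM and so took a larger part of the counts in wild-type replicate 1 than in the other libraries. Rps4l was at 0.23 with that library left out, and at 0.66 without wild-type replicate 2.

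**Figure D5:**
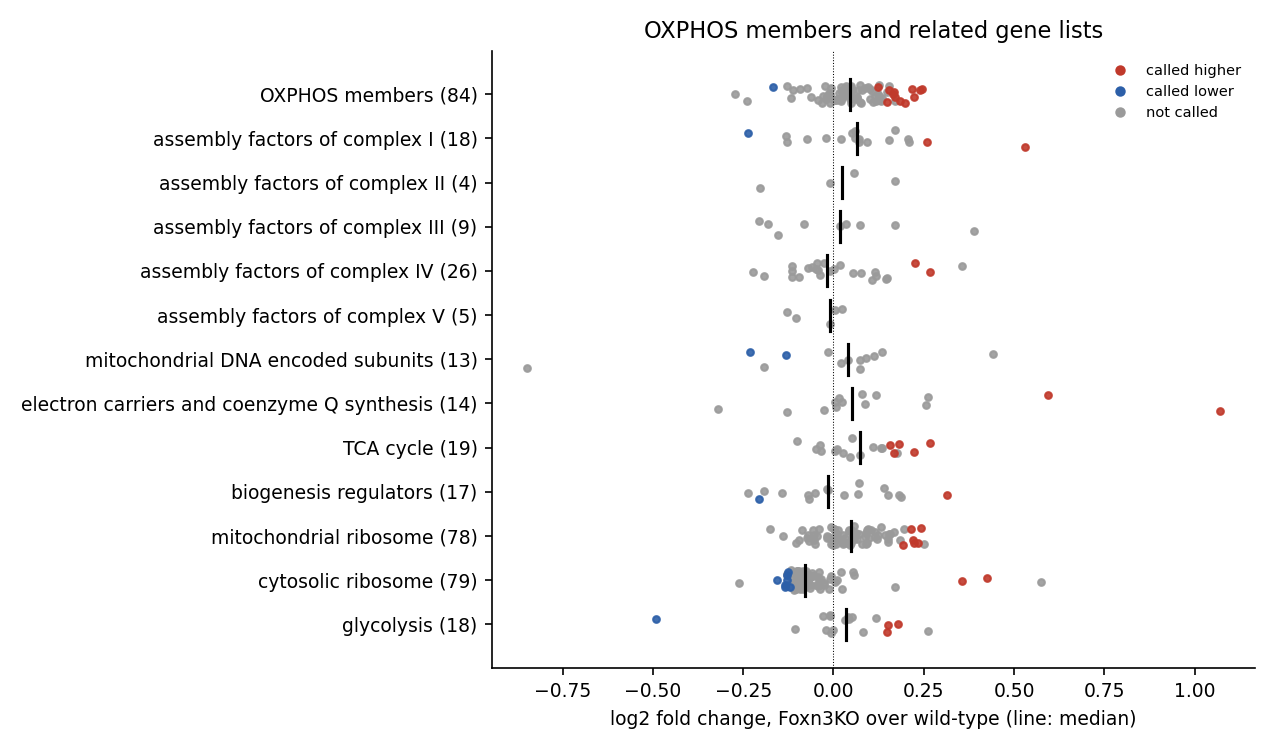
Log2 fold change of Foxn3KO over wild-type (x axis) for the 84 genes and for each related list (y axis, with the number tested). Points are genes, coloured by call, and black lines are medians. The medians run from -0.079 for the cytosolic ribosome to 0.074 for the TCA cycle, and Coq8b lies farthest to the right at 1.07.

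In the authors' deposited table, 4 of the 84 genes had an adjusted p under 0.05, and these were also called by edgeR and by DESeq2 here. The authors' deposited table gave log2 fold changes of 0.24 for Cox5a (adjusted p = 0.00299), 0.18 for Sdha (0.00321), 0.12 for Atp5f1a (0.0226) and 0.21 for Ndufa1 (0.0441).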

How the data were processed

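RNA from 4 E19 retinas, 2 labelled wild-type and 2 labelled Foxn3KO, was sequenced. The authors deposited 1 table of 18472 rows and 18471 genes, 57 without a symbol, with raw counts per gene and library, FPKM values, a mean of normalized counts (a signal column, not used for results), and log2 fold changes with p-values, per the file headers. Genome build mm39 and DESeq2 are named in the submitters' processing notes. The aligner, counter, annotation, use of strand, use of molecular identifiers and handling of reads with several matches are not given in the sources used here.

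Counts were tested with edgeR 4.0.16 (quasi-likelihood, TMM, filterByExpr, R 4.3.3) on genotype alone, two-sided, with Benjamini-Hochberg adjustment over 17300 genes and a threshold of 0.05. Log2 fold changes are Foxn3KO over wild-type. DESeq2 1.42.0, limma 3.58.1 (voom), other scalings and filters, a replicate block and leaving out each library were alternatives. On simulated data with 200 changed genes of 17074 tested, 90.5% of the changed genes and 12 unchanged genes were called. The changes put into the simulation were larger than the difference of any member. That share therefore does not apply to differences as small as those of the members. Medians, counts and motif shares are descriptions with no list test. Overlaps and chromosomes are from GENCODE M21, and promoters from RefSeq (GRCm38.p6).

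Genes were named by rule: core and electron-carrying subunits, isoform families, Atp5if1, up to 3 called members per complex and direction with the smallest p, mitochondrial DNA encoded genes, biogenesis regulators, Cycs, and up to 2 called genes per direction of each other list. Others are said to be named later or by rank. The members and lists were chosen with earlier results of these data known. An item that the naming rule covers is not reported here.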

Additional observations from a re-analysis of the deposited data

How the results depend on the processing

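Members called numbered 4 under DESeq2 (background 14.1%) and 25 at an adjusted p under 0.1, for which no share over all genes is given. RLE scaling, no filter, at least 10 counts in every library and voom gave 13, 13, 16 and 15, each with the 13 genes of the report among them. Scaling by total counts gave 11 (8 shared, background 23.0%) and edgeR's older way of fitting 14 (11 shared, background 21.6%). The same backgrounds hold for the counts per complex. The median over members was 0.0265 with total counts and 0.0148 to 0.0774 without 1 library. For complex I, DESeq2 called 1, the 0.1 threshold 8, and leaving out a library 0 to 10, with medians of 0.0343 to 0.0927. For complex II, leaving out a library gave 0 to 1 calls. For complex III, total counts and DESeq2 each gave 0 (2 at an unadjusted p under 0.05 in DESeq2), the filter at 10 counts, the older edgeR fit and the 0.1 threshold each 2, and leaving out a library 0 to 2. Its median was 0.000828 with total counts and -0.0127 to 0.0928 without a library. For complex IV, DESeq2 called 1, the 0.1 threshold 7, and leaving out a library 1 to 6, with medians of -0.0101 to 0.0686. For complex V, total counts and DESeq2 each gave 1, the 0.1 threshold 7, and leaving out a library 0 to 6. The related mitochondrial lists, 22 calls among 203 genes, gave 10 under DESeq2, 42 at the 0.1 threshold and 8 to 37 without a library. The 22 calls were 10.8% of the 203 genes of these lists, below the background of 21.9% of all genes. The 10 calls under DESeq2 were 4.93% of them, below the background of 14.1%. The replicate numbers did not pair the libraries: the correlation of the difference between replicates across groups was -0.00825 over 17300 genes. With the replicate block, 19 members were called (13 shared, background 24.4%), with 2 in complex III, 6 in complex IV and 5 in complex V. Signs turned under total counts for Atp5if1 (-0.0163) and Cycs (-0.00546), both uncalled. Without 1 library, signs also turned for uncalled genes, whose log2 fold changes ran from -0.0329 to 0.0742 (Sdhb), -0.054 to 0.0147 (Sdhd), -0.013 to 0.0742 (Cox4i1), -0.0119 to 0.0795 (Cox5b), -0.0749 to 0.279 (Cox7a1), -0.00924 to 0.0534 (Cox7a2), -0.011 to 0.136 (Cox6b1), -0.0328 to 0.0148 (Atp5f1c), -0.0479 to 0.0635 (Atp5if1), -0.0239 to 0.0513 (Cycs) and -0.405 to 0.0181 (Ppargc1a). Leaving out a library leaves a group with 1 sample, which is assumed to vary like the other group. Apart from the settings that use fewer libraries or another threshold, the cause was not tested. With 2 libraries a group, differences near the median SE of 0.053 were not resolved for single genes.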
